A study of Homo sapiens with 12 samples.

Results

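The combined effect of MycER activation and CDK12 silencing on early DNA synthesis was described by comparing 2 lists of EdU-labelled regions from U2OS-MycER cells, one of the control condition (shNT) and one of the condition in which both factors were changed (shCDK12_OHT). U2OS is a human osteosarcoma cell line, and MycER is a fusion of Myc with the estrogen receptor that becomes active when 4-hydroxytamoxifen (OHT) is given. In all conditions a short hairpin RNA was induced with doxycycline at 1 µg/mL, a non-targeting hairpin in shNT and one against CDK12 in shCDK12_OHT. OHT was given at 300 nM for 40 h in shCDK12_OHT and shNT_OHT and was not given in shNT and shCDK12. All cells were arrested for 8 h in 100 ng/mL nocodazole, collected by shake-off, and released for 24 h into 25 µM EdU and 2 mM hydroxyurea. The series holds 12 samples, 3 for each of 4 conditions, and the comparison concerned 6 of them. The number of hairpins used against CDK12 and whether the cells were 1 clone are not given in the labels. The lists hold no measure of CDK12 or of Myc, so neither the silencing nor the activation was checked here.

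EdU is a thymidine analogue that is built into newly made DNA, and hydroxyurea depletes the nucleotides that replication needs. Forks that start early in S phase then travel only a short way, and the labelled stretches mark the earliest replicating DNA, which in human cells lies mostly in gene-rich, transcribed chromatin. Myc is a transcription factor that drives cells into S phase. CDK12 is a kinase of elongating RNA polymerase II that sustains the transcription of long genes and of DNA repair genes.

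A member of the comparison was any region on an autosome in either list. There were 8472 of them, of 18185 regions in the 4 lists of the series on all chromosomes. Each list was called on the merged reads of the 3 samples of its condition. There was therefore 1 list per condition and no replicate error, no difference below was tested, and intervals cover counting error over regions only. Regions of 1 list share their libraries and are not independent replicates of a condition.

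The shCDK12_OHT list was longer and covered more sequence than the shNT list. It held 4676 autosomal regions over 547 Mb, and the shNT list held 3796 regions over 442 Mb. Covered length was thus 1.24 times that of shNT, a difference of 105 Mb and of 880 regions. Median widths lay close together, at 74.8 kb in shNT (quartiles 46.4 and 135.2 kb) and 71.6 kb in shCDK12_OHT (quartiles 43.6 and 136.4 kb). Regions over 300 kb numbered 257 in shNT and 348 in shCDK12_OHT.

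Most of the sequence labelled in the control was kept, and the difference came mainly from additions. The lists shared 404 Mb, which is 91.4% of the bases covered in shNT. In shCDK12_OHT, 143 Mb were new, or 26.1% of its covered bases, and 37.8 Mb of shNT were no longer covered, so that 3.78 new bases stood against each lost one. Autosomal reads inside regions numbered 17261176 in shNT and 28573223 in shCDK12_OHT, a ratio of 1.66, and the part of this difference in the region calls was not tested. Reads inside autosomal regions of the other lists numbered 49994993 in shNT_OHT and 13220717 in shCDK12.

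Every region was assigned to 1 of 6 outcomes. One-to-one pairs, in which each region shared bases (1 bp or more) with its partner and with no further region, made up 2555 regions in each list, or 67.3% of shNT regions (Wilson 95% interval 65.8 to 68.8) and 54.6% of shCDK12_OHT regions (53.2 to 56.1). In 275 places, 600 shNT regions were covered by 1 shCDK12_OHT region each. In 188 places, 1 shNT region was replaced by several, 402 in all. In a further 80 places, 189 shNT regions overlapped 178 shCDK12_OHT regions in chains of several to several. The remaining 264 shNT regions had no counterpart in shCDK12_OHT (6.95%, interval 6.19 to 7.81), and 1266 shCDK12_OHT regions had none in shNT (27.1%, 25.8 to 28.4). These counts depended on the overlap rule and on list length, which the intervals do not cover. With a reciprocal overlap of 50% 1123 regions were lost and 2003 gained, and with the 3796 highest-scoring regions of each list 465 were lost and 639 gained. Counting the chains too, 365 regions of shCDK12_OHT joined at least 2 shNT regions, and 276 shNT regions were divided into at least 2.

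The new bases fell into 3 kinds. Regions with no counterpart in shNT held 71.3 Mb, or 49.9% of the new bases. Flanks, the parts of an overlapping region that reached past the shNT borders, held 58.4 Mb (40.9%) in 2817 pieces with a median length of 8.8 kb. Gaps between shNT regions that were bridged held 13.1 Mb (9.17%) in 434 pieces with a median of 18 kb. The largest single flank measured 290.4 kb and the largest bridged gap 298.0 kb. The order of the first 2 kinds depended on the settings. Regions without a counterpart held 42.8% of new bases and flanks 43.9% when regions up to 10 kb apart were joined, and 39.3% and 49.3% with the 3796 highest-scoring regions of each list. Losses had another make-up: of the 37.8 Mb lost, 22.1 Mb were flanks (58.5%), 11.9 Mb were whole regions (31.5%) and the remaining 10.1% were gaps inside divided regions.

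**Figure D1:**
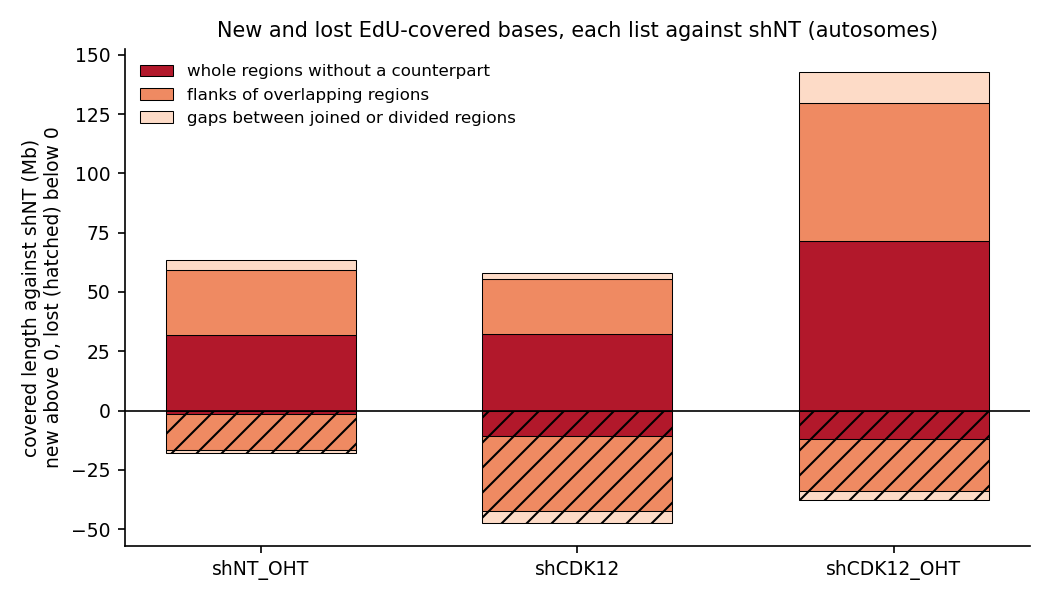
Covered length in Mb that was new (above 0) or lost (hatched, below 0) in each of the other 3 lists against the shNT list, autosomes only, split into whole regions without a counterpart, flanks and gaps. The shCDK12_OHT bar reaches 142.8 Mb of new bases and the other bars 63.5 and 58.1 Mb; all 3 share the shNT list.

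Regions gained in shCDK12_OHT were narrow and weak beside the one-to-one regions of their list, and the regions lost from shNT were alike in this. Gained regions had a median width of 49.6 kb (quartiles 35.6 and 69.2 kb) and a median density of 24.6 reads per kb, where one-to-one regions of the same list had 79.6 kb and 38.4 reads per kb. They made up 27.1% of the regions and 6.33% of the reads in that list. Lost regions had a median width of 42.0 kb and 16.2 reads per kb, against 70.0 kb and 23.4 reads per kb for one-to-one regions of shNT.

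Absence from the other list also went with a low deposited score, the authors' own value for a region. Regions of low score lie nearest the lowest score of their list, and the part of this limit in the absences was not tested. When each list was put into 4 equal groups by score, 797 of 1169 regions in the lowest group of shCDK12_OHT (68.2%, interval 65.5 to 70.8) were absent from shNT, and 1 of 1169 in the highest. In shNT, 176 of 949 regions in the lowest group were absent from shCDK12_OHT (18.5%, 16.2 to 21.1) and 0 of 949 in the highest (upper Wilson bound 0.403%). No region over 300 kb was gained or lost, of 348 in shCDK12_OHT and 257 in shNT. By the rule of 1 shared bp, the highest-scoring and widest early replicating regions of the control therefore all had a counterpart. A wide region meets this rule easily, and its counterpart can be much narrower.

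The 5 widest gained regions (hg19 coordinates, counted from 1) were from 209.6 to 243.6 kb wide and held no region in shNT. The widest lay on chromosome 2 (23697201 to 23940800), spanned 243.6 kb and held 7079 reads. In shNT_OHT 72.0 kb of this interval were covered, and in shCDK12 64.4 kb. A second on chromosome 9 (129145201 to 129373600, 228.4 kb, 7392 reads) was covered over 70.0 kb in shNT_OHT and 72.8 kb in shCDK12. At both sites the other lists held a single region less than 1/3 as wide, inside the limits of the shCDK12_OHT region. Another on chromosome 2 (111430401 to 111650000, 219.6 kb, 6425 reads) was covered over 78.4 kb in shNT_OHT and, in 2 regions, over 176.8 kb in shCDK12. The region on chromosome 1 (21105601 to 21315200, 209.6 kb, 6483 reads) was covered over 60 kb and 100 kb. The region on chromosome 12 (4945601 to 5156800, 211.2 kb, 5295 reads) had no cover in shNT_OHT and 19.2 kb of cover in shCDK12. These 5 sites were chosen for a wide region in shCDK12_OHT and none in shNT. That choice favours less cover in the other lists, so nothing is read from it.

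The 5 widest regions of shNT with no counterpart in shCDK12_OHT were shorter, from 110.4 to 138.8 kb, and all of them had cover in shNT_OHT. The widest, on chromosome 20 (11133201 to 11272000, 2471 reads), was covered over 120.0 kb in shNT_OHT and 37.2 kb in shCDK12. On chromosome 11 (130861601 to 130986000, 124.4 kb, 2637 reads) cover was 75.2 kb in shNT_OHT and 27.6 kb in shCDK12. At these 2 sites shCDK12 covered less than shNT_OHT, and the values of shNT and shCDK12_OHT are set by the choice of sites. The order of the single factors was also list-wide: 57 shNT regions had no counterpart in shNT_OHT and 224 had none in shCDK12. On chromosome 1 (30102001 to 30226000, 124.0 kb), chromosome 3 (31039601 to 31157600, 118.0 kb) and chromosome 9 (4210001 to 4320400, 110.4 kb) neither list with the CDK12 hairpin held a region. These 3 sites were covered over 80.4, 72.4 and 94.4 kb in shNT_OHT. Another lost region, on chromosome 20, had the same width as the last of these and was not among the 5.

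Gaps between neighbouring shNT regions were filled more often the shorter they were. Of 3774 such gaps, 437 were closed completely (11.6%, Wilson interval 10.6 to 12.6), the longest of 298.0 kb. Of gaps up to 10 kb, 174 of 339 were closed (51.3%, 46.0 to 56.6). The share was 23.3% (172 of 739) for gaps of 10 to 50 kb, 11.0% (69 of 630) for gaps of 50 to 100 kb and 1.81% (22 of 1213) for gaps of 100 to 500 kb. None of 853 gaps over 500 kb was closed. Partial filling reached further, since 21.4% of the length of gaps of 100 to 500 kb was newly covered and 3.10% of the length of longer gaps. Long gaps nevertheless received the most sequence, with 60.1 Mb of new bases in gaps of 100 to 500 kb and 60.8 Mb in gaps over 500 kb. For the same gaps of 50 to 100 kb, 16 were closed in shNT_OHT and 11 in shCDK12, and for gaps of 100 to 500 kb 2 and 0.

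**Figure D2:**
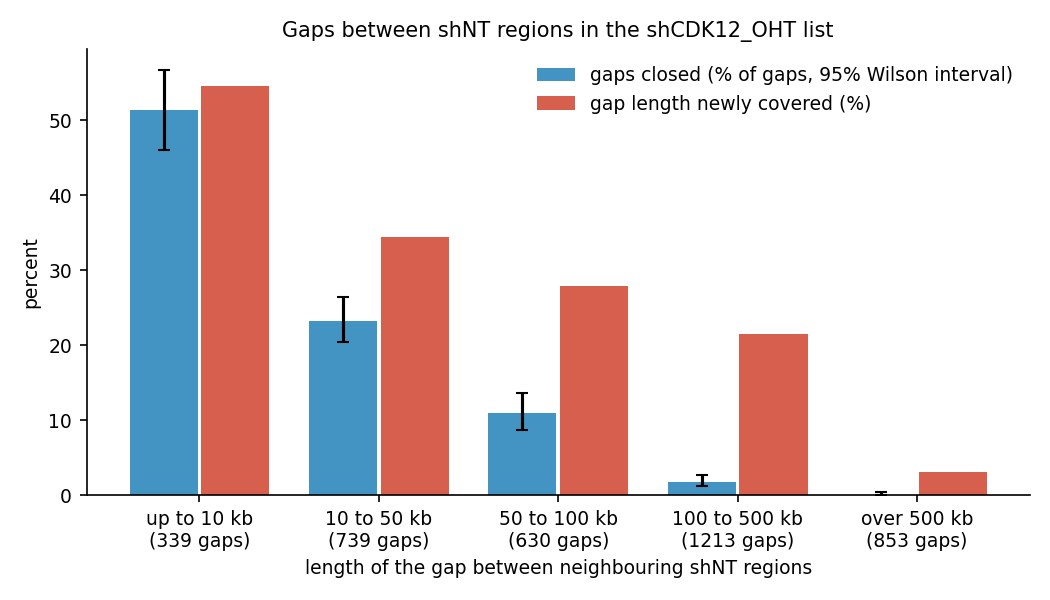
Gaps between neighbouring shNT regions, grouped by length: percent of gaps closed by shCDK12_OHT regions (blue, bars show 95% Wilson intervals) and percent of gap length newly covered (red). The closed share goes from 51.3% for gaps up to 10 kb to 1.81% for gaps of 100 to 500 kb, and none over 500 kb was closed.

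New bases lay near sequence that was already labelled in shNT. Within 10 kb of a shNT region lay 17.7% of new bases, beside 2.99% of all bases uncovered in shNT inside the span of the lists. Within 100 kb the shares were 64.7% and 19.2%, and within 500 kb 91.7% and 47.9%. The median distance was 55.0 kb for new bases and 543.8 kb for all uncovered bases. No sequence was masked, so uncovered bases here and below include any stretch in which no region could be called. Flanks and bridged gaps touch a shNT region by definition, so the gained regions were also taken alone. Their median distance to the nearest shNT region was 119.8 kb (quartiles 43.8 and 347.5 kb). Of 1266 gained regions, 349 lay within 50 kb (27.6%), and 239 lay more than 500 kb away (18.9%). Of all bases uncovered in shNT, 11.9% lay within 50 kb and 52.1% beyond 500 kb. A distance per region and a distance per base are different measures, so these shares are not a like comparison.

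The shCDK12_OHT regions that overlapped the most shNT regions were long domains in which short gaps had disappeared. On chromosome 22 (45732401 to 47176000, 1443.6 kb) 1 region of 97679 reads overlapped 5 shNT regions, which had covered 94.0% of the same interval. This interval was covered over 95.04% in shNT_OHT, in 4 regions, and over 89.9% in shCDK12, in 5 regions. On chromosome 1 (24087601 to 24968800, 881.2 kb, 43608 reads) 5 shNT regions had covered 91.7%. The domain on chromosome 11 (63968401 to 66896800, 2928.4 kb, 284724 reads) overlapped 4 shNT regions that had covered 96.7%, among them the widest of the shNT list (64341201 to 66545600, 2204.4 kb). In these 3 domains, fewer than 1 base in 10 was new. On chromosome 1 the cover was 96.1% in shNT_OHT and 95.7% in shCDK12, and on chromosome 11 it was 98.7% and 99.5%. More was added on chromosome 22 (24772001 to 25750000, 978.0 kb), where 4 shNT regions had covered 80.2%, and on chromosome 3 (124095601 to 124952000, 856.4 kb), where 4 had covered 63.2%. At this chromosome 22 site the cover was 97.5% in shNT_OHT, in 3 regions, and 98.0% in shCDK12, in 2 regions. Each list with a single factor thus covered most of what was uncovered there in shNT. On chromosome 3 the cover was 72.2% in shNT_OHT, in 4 regions, and 67.4% in shCDK12, in 3 regions. The 5 domains were chosen for the number of shNT regions joined in shCDK12_OHT.

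Division was seen in wide domains too, with little loss of sequence. The second widest shNT region, on chromosome 19 (45060001 to 46852400, 1792.4 kb), corresponded to 6 regions in shCDK12_OHT that still covered 96.3% of it. On chromosome 1 (155812001 to 156935200, 1123.2 kb) 5 regions covered 95.5%, and on chromosome 19 (17299201 to 18575600, 1276.4 kb) 4 regions covered 96.1%. These sites were chosen for their number of regions in shCDK12_OHT. They held 2, 2 and 1 regions in shNT_OHT and 3, 2 and 3 in shCDK12. The other wide shNT regions kept a single counterpart: the region on chromosome 19 at 448801 to 2114400 (1665.6 kb) lay inside 1 region of 1776.4 kb, and that on chromosome 22 at 38784001 to 40111600 (1327.6 kb) inside 1 region of 1878.4 kb.

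Widths were then compared over the 2555 one-to-one pairs. The typical pair hardly differed: the median log2 width ratio was 0.02 (binomial 95% interval of the median 0.00 to 0.03), with quartiles of -0.11 and 0.33. Wider in shCDK12_OHT were 1338 pairs (52.4%, Wilson interval 50.4 to 54.3), narrower were 1075 (42.1%), and 142 had equal widths. When a reciprocal overlap of 50% was asked of a pair, 49.6% were wider and the median log2 ratio was 0, so the direction of the typical pair depended on that rule. The upper tail was the longer one. At least 1.5-fold wider were 417 pairs (16.3%) and at least 1.5-fold narrower 131 (5.13%). The summed width of the pairs was 254 Mb in shNT and 279.9 Mb in shCDK12_OHT, a ratio of 1.10.

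**Figure D3:**
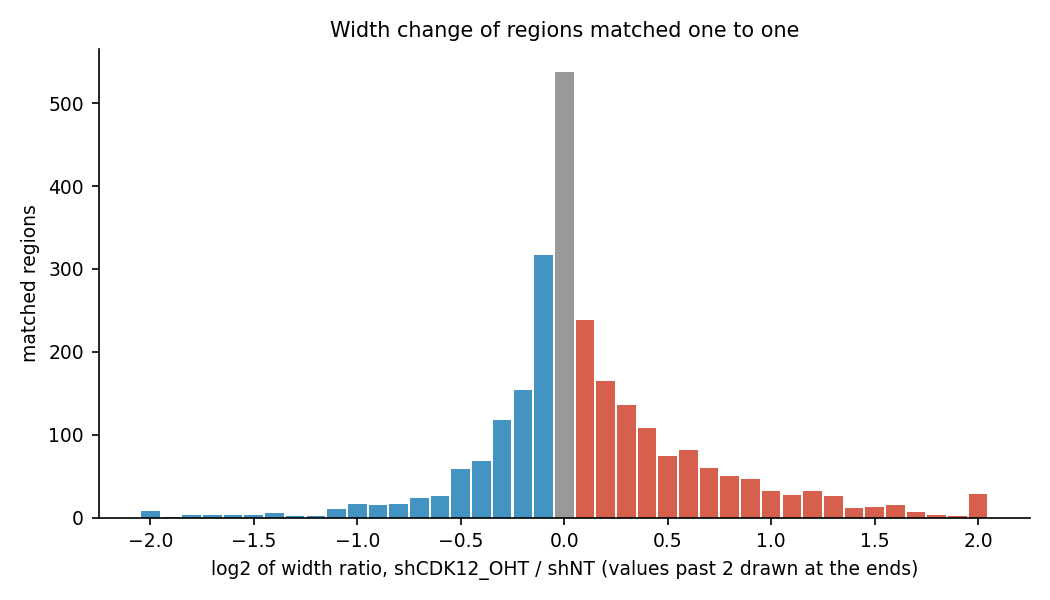
Number of one-to-one regions by log2 width ratio of shCDK12_OHT over shNT, in bins of 0.1 centred on 0 (blue narrower, grey about equal, red wider, values past 2 drawn in the end bins). The peak sits at 0, and the right tail, with 417 regions at least 1.5-fold wider, is longer than the left, with 131 at least 1.5-fold narrower.

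Borders lay outward and inward of the shNT border about equally often, but outward shifts were longer. Of 5110 borders, 45.0% lay further out in shCDK12_OHT and 45.4% further in, and 9.53% were at the same window. The median outward shift was 8.0 kb and the median inward shift 5.2 kb. Shifts of more than 50 kb were outward at 238 borders and inward at 19. Left and right borders behaved alike, with 104 and 134 such outward shifts. Both borders were further out in 588 regions, and both were further in at 601.

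Summed over all these borders, outward shifts came to 43.3 Mb and inward shifts to 17.9 Mb. In 229 one-to-one regions (8.96%), on 21 of 22 autosomes, at least 1 border lay more than 50 kb further out. Their median width was 85.2 kb in shNT and 170.4 kb in shCDK12_OHT, a difference that follows from how they were chosen. Their median log2 density ratio was -0.02, beside 0.02 in the other 2326 regions.

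Among one-to-one regions of at least 30 kb in both lists, the largest widening was on chromosome 7 (3938401 to 3979600). The region measured 41.2 kb in shNT, 56.4 kb in shNT_OHT, 51.2 kb in shCDK12 and 360.4 kb in shCDK12_OHT, a ratio of 8.75. On chromosome 1 (226817601 to 226885600) the widths were 68.0, 87.6, 48.4 and 365.2 kb in the same order, and on chromosome 22 (22995201 to 23080800) 85.6, 126.8, 148.0 and 448.8 kb. The sites were chosen for the width ratio of shCDK12_OHT to shNT. The widths in the lists of the single factors lay nearer to shNT at all 3. A choice by extreme shCDK12_OHT width favours this, so nothing is read from it. The next, on chromosome 2 (172073201 to 172104800), measured 31.6, 30.8, 41.6 and 159.6 kb.

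The largest narrowing was on chromosome 15 (39376001 to 39613600), where 237.6 kb in shNT and 231.2 kb in shNT_OHT stood against 192.0 kb (2 regions) in shCDK12 and 46.0 kb in shCDK12_OHT, a ratio of 5.17. On chromosome 2 (237545601 to 237701600) the covered widths were 156.0 kb in shNT, 143.2 kb in shNT_OHT, 98.8 kb in shCDK12 and 36.4 kb in shCDK12_OHT. On chromosome 5 (167047601 to 167206400) they were 158.8, 126.4, 89.6 and 45.2 kb, and on chromosome 21 (44973601 to 45088800) 115.2, 98.0, 62.8 and 32.8 kb. The extremes at these 4 sites are set by the choice. Of the single factors, shCDK12 was narrower than shNT_OHT at each of them. This order was not particular to these sites, since 59.5% of all one-to-one pairs were narrower in shCDK12 and 46.6% in shNT_OHT.

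Read density was compared over the same 2555 pairs, as reads per base divided by the median of each list over the pairs. Without this division the median density was 23.4 reads per kb in shNT and 38.4 in shCDK12_OHT, a ratio of 1.64, and the median reads per region were 1596 and 3031. After it, the quartiles of the log2 density ratio were -0.30 and 0.29. At least 1.5-fold denser in shCDK12_OHT were 181 pairs (7.08%, interval 6.15 to 8.14) and at least 1.5-fold less dense 258 (10.1%, 8.99 to 11.3). This split rests on the normalisation. With densities divided by summed reads over summed length of the pairs, the median log2 ratio was 0.20, and 16.3% were denser and 5.48% less dense. With the median of the 65 pairs at most 2 kb wide as divisor it was 0.35, and the shares were 29.1% and 3.37%. No direction is therefore given for the density of all pairs.

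What did not depend on the divisor, which moves all pairs by the same amount, was the rank of the pairs by ratio. Whether the ratio went with the density of a region depended on the list used to group the pairs. The 2199 pairs of at least 30 kb were put into 5 equal groups by the geometric mean of their normalised densities. The median log2 ratio was 0.15 in the lowest group (binomial interval of the median 0.13 to 0.18), 0.11, 0.06 and -0.03 in the next, and -0.19 in the highest (-0.23 to -0.13). Grouped by shNT density alone, the medians went from 0.29 in the lowest to -0.31 in the highest group. Grouped by shCDK12_OHT density alone they had no such order, at -0.07, 0.06, 0.11, 0.14 and -0.05. A ratio is tied to the densities that form it, so these groupings are descriptions only. By geometric mean, and with the list median as divisor, at least 1.5-fold less dense were 0.455% of the lowest and 17.0% of the highest group. These shares and the signs of the group medians depend on the divisor, and the order of the medians does not. Undivided, the medians were 14.4 and 26.0 reads per kb in the lowest group, and 50.3 and 72.9 in the highest. Across these pairs the normalised density at the 90th percentile was 3.59 times that at the 10th in shNT and 2.89 times in shCDK12_OHT. The spread of densities from region to region was thus narrower in shCDK12_OHT. The highest group by geometric mean also had the widest regions, with a median shNT width of 157.4 kb against 50.8 kb in the lowest, and density and width cannot be told apart in this grouping.

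**Figure D4:**
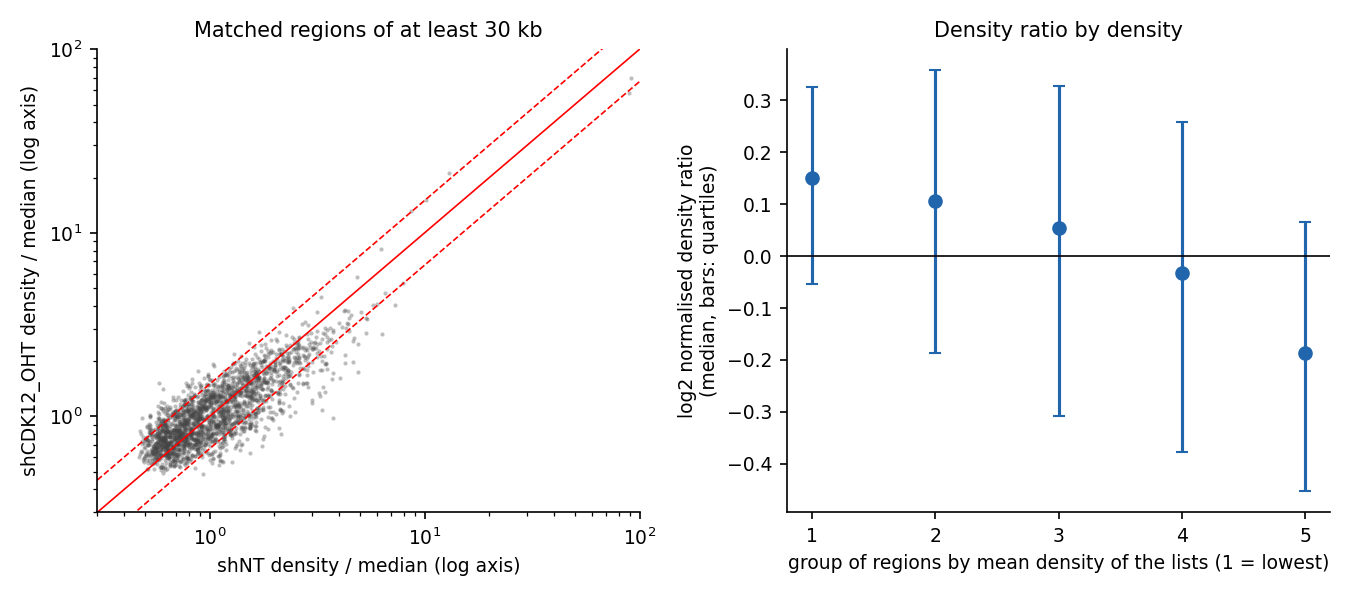
Left, normalised density (density divided by the list median, log axes) of one-to-one regions of at least 30 kb in shNT and shCDK12_OHT, with lines at equality and at 1.5-fold. Right, median log2 density ratio with quartile bars for 5 equal groups of these regions by the geometric mean density of both lists, which goes from 0.15 in the lowest to -0.19 in the highest.

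By shNT width, the median log2 density ratio was -0.38 in 143 regions up to 10 kb, 0.14 in 145 regions of 10 to 30 kb, 0.08 in 1451 of 30 to 100 kb, -0.08 in 705 of 100 to 300 kb and -0.20 in 111 over 300 kb. Both ends of the width range were thus lower than the middle. Grouping by the geometric mean of the widths in both lists gave the same signs, at -0.32 for the narrowest, then 0.10, 0.07, -0.05 and -0.17. These signs rest on the list median as divisor, and the order of the classes does not. The median log2 width ratio of the narrowest class was 0.

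The 4 pairs with the lowest density ratios, chosen for a high shNT and a low shCDK12_OHT density, were strong regions in the control. For each list, density is given here relative to the median of its own autosomal regions. On chromosome 1 (209500001 to 209620800) it was 3.92 in shNT, 3.60 in shNT_OHT, 1.87 in shCDK12 and 1.13 in shCDK12_OHT. The log2 ratio of this pair was -1.94, and its width was 120.8 kb in shNT and 74.8 kb in shCDK12_OHT. On chromosome 2 (101300401 to 101453600, log2 ratio -1.62) the relative densities were 3.48, 3.26, 2.29 and 1.26. On chromosome 2 at 238006001 to 238269200 (log2 ratio -1.49) they were 5.12, 5.41, 2.60 and 2.02, and on chromosome 15 at 39376001 to 39613600 (log2 ratio -1.42) 2.26, 1.75, 0.955 and 0.933. Of the lists that took no part in the choice, shNT_OHT was higher than shCDK12 at all 4 sites. Over all one-to-one pairs with shNT, 1.68% were at least 1.5-fold less dense in shNT_OHT and 6.14% in shCDK12.

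The pairs with the highest ratios were weak regions in shNT. On chromosome 1 (207468401 to 207502000, log2 ratio 1.38) the relative densities were 0.611 in shNT, 0.992 in shNT_OHT, 1.10 in shCDK12 and 1.76 in shCDK12_OHT. On chromosome 17 (65226801 to 65335200, log2 ratio 1.21) they were 0.633, 0.927, 1.27 and 1.63, on chromosome 15 (41399601 to 41525600, 1.02) 0.621, 0.869, 1.12 and 1.40, and on chromosome 22 (18878001 to 18926400, 1.01) 0.509, 0.806, 0.817 and 1.14. These sites were chosen for a low shNT and a high shCDK12_OHT density. The values of the single factors lay in between at all 4. A choice of extremes favours that position, so nothing is read from it. Widths changed little at 3 of them, and on chromosome 1 the region measured 33.6 kb in shNT and 52.4 kb in shCDK12_OHT.

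All 22 autosomes had more covered length and more regions in shCDK12_OHT than in shNT. The ratio of covered length ranged from 1.04 on chromosome 19 (24.9 to 26.0 Mb) to 1.44 on chromosome 4 (9.71 to 14.0 Mb), with a median of 1.26. Chromosomes 18 (1.42) and 13 (1.37) followed chromosome 4 and are, like it, sparsely covered in shNT, at 6.51%, 3.92% and 5.10% of the span of the lists. Over the 22 autosomes, Spearman's rho between the share covered in shNT and the covered ratio was -0.66 (a description only, since both contain the shNT length and share its library). Relative to the uncovered sequence the order turned. The share of uncovered sequence that became covered was lowest on chromosome 13 (2.28%) and highest on chromosome 22 (31.1%), and rho with the share covered in shNT was 0.88. The share of shNT bases lost had the opposite order, from 18.3% on chromosome 13 to 2.40% on chromosome 22 (rho -0.90). Both shares also have the shNT length in their divisor, so these correlations too are descriptions only. The rise in percentage points of the span was not ordered by shNT cover throughout, with 1.88 on chromosome 19 and 2.73 on chromosome 18.

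Chromosome 22 lay apart from the other densely covered autosomes. It was covered over 52.5% of its span in shNT and 66.0% in shCDK12_OHT, a difference of 13.5 percentage points, where the next largest was 6.41 on chromosome 15 and the median 3.50. It had 5.19 Mb of new and 0.442 Mb of lost bases, a ratio of 11.7, beside a range of 1.71 to 5.75 on the other autosomes. Its 52 one-to-one pairs had the highest median log2 density ratio (0.17) and the highest share of wider pairs (65.4%). Chromosome 19, covered over 42.3% in shNT, had the lowest ratio of new to lost bases (1.71) and a median log2 density ratio of -0.09. The kind of new sequence also differed, with gained regions making up 86.3% of new bases on chromosome 13 and 29.3% on chromosome 22.

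**Figure D5:**
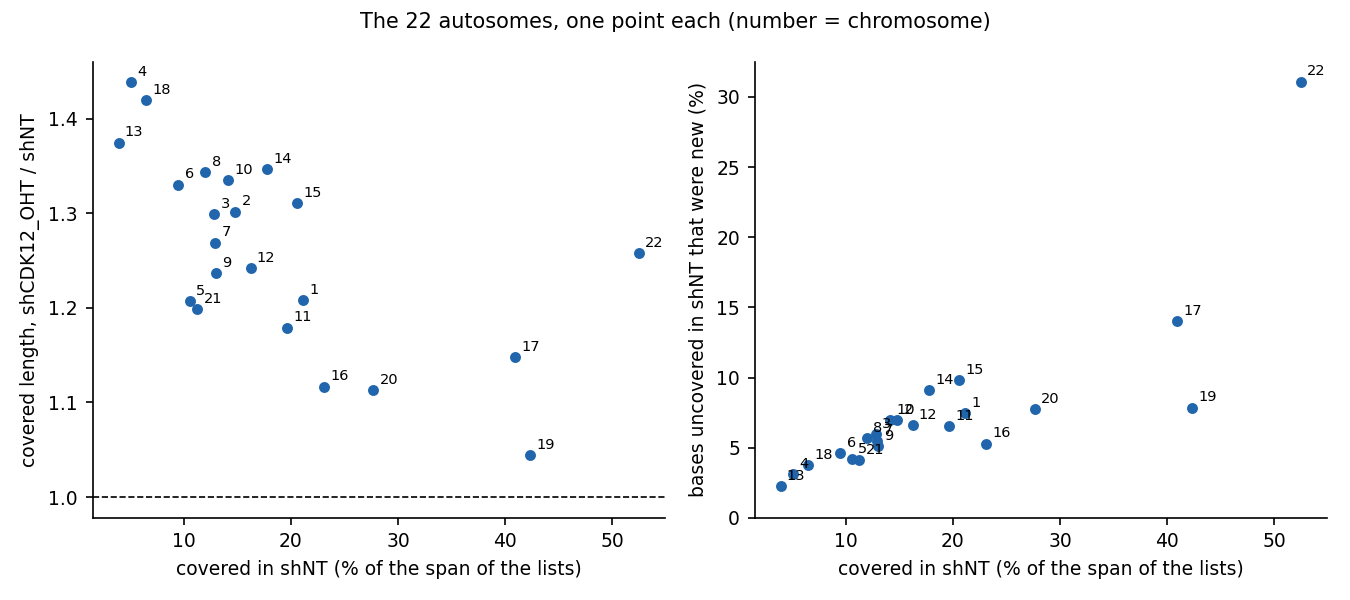
Each point is 1 of the 22 autosomes, labelled by number, with the share of its span covered in shNT on the x axis. Left, ratio of covered length in shCDK12_OHT to shNT (dashed line at 1), from 1.04 on chromosome 19 to 1.44 on chromosome 4; right, percent of bases uncovered in shNT that were new, from 2.28% on chromosome 13 to 31.1% on chromosome 22.

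The same contrast was seen along chromosomes in 557 windows of 5 Mb. Of these, 408 had more new than lost bases, 102 had more lost than new, and 47 had no net difference. In the 57 windows with no shNT region, 0.356% of the sequence was covered in shCDK12_OHT. New cover took 2.92% of the uncovered sequence in windows covered up to 10% in shNT, 8.79% at 10 to 30%, 17.9% at 30 to 60% and 34.7% above 60%. Losses took 20.3%, 10.9%, 6.05% and 3.47% of the shNT bases in the same classes. Windows that were already dense in the control thus gained the largest share of what was left and lost the smallest share of what they had. Both shares have the shNT cover in their divisor, and the windows were grouped by that cover. This order is therefore a description only. The tenth of windows with the most new bases (56 windows on 19 autosomes) held 32.3% of new bases, 23.2% of shNT bases and 11.1% of lost bases.

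Towards the chromosome ends the relative difference was smaller. In windows whose centre lay up to 5 Mb from the outermost region of any list, covered length was 1.16 times that of shNT, at 5 to 20 Mb 1.19 times, at 20 to 50 Mb 1.26 times and farther in 1.33 times. The cover in shNT had the reverse order, at 29.8%, 18.1%, 16.5% and 9.93% of the sequence, so that position and cover in shNT cannot be told apart here.

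The window with the most new bases was at the start of the covered part of chromosome 12 (73601 to 5000000), with 1641 kb new and 51.2 kb lost. Its covered length was 1634 kb in shNT, 1978 kb in shNT_OHT, 2075 kb in shCDK12 and 3224 kb in shCDK12_OHT. The next were on chromosome 3 (125000001 to 130000000), with 1363 kb new, and on chromosome 22 (25000001 to 30000000), with 1311 kb new. On chromosome 22 the covered length was 3157, 3526, 3758 and 4436 kb in the same order. Since the windows were chosen by the difference between shNT and shCDK12_OHT, the order of these 2 lists is given by the choice.

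The largest net loss was at the end of chromosome 11 (130000001 to 133942000), which holds the second of the widest lost regions. There 480 kb were lost and 0.800 kb were new, and the covered length was 815 kb in shNT, 768 kb in shNT_OHT, 440.4 kb in shCDK12 and 336 kb in shCDK12_OHT. On chromosome 2 (235000001 to 240000000), the window with 2 of the narrowed or weakened regions above, the lengths were 1849, 1970.4, 1628 and 1533 kb. On chromosome 20 (55000001 to 60000000) they were 1307, 1437, 792 and 1024 kb. These windows were chosen for their loss in shCDK12_OHT. Of the lists that took no part in the choice, shCDK12 covered less than shNT_OHT in all 3. It also covered less over all autosomes, at 452 Mb against 487 Mb.

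The single factors are set beside the combined change as values of their own, all against the same shNT list, so they are not independent of each other. Net covered length was 45.7 Mb higher in shNT_OHT, 10.6 Mb higher in shCDK12 and 105 Mb higher in shCDK12_OHT, and new bases amounted to 63.5, 58.1 and 143 Mb. The combined figure exceeded the sum of the single ones in both measures. The lists differ in reads inside regions and in lowest score, at 145.5 in shNT, 99.9 in shNT_OHT, 66.1 in shCDK12 and 136.7 in shCDK12_OHT. With the 3796 highest-scoring regions of each list the combined net figure was 69.5 Mb. No such setting was run for the single factors, so the comparison with their sum is a description only. Lost bases did not have this order, at 17.8, 47.5 and 37.8 Mb. More length than in shNT was found on 22, 14 and 22 autosomes. Gained regions numbered 966, 972 and 1266, and their median widths were 31.6, 30 and 49.6 kb. Over all regions of shNT_OHT, shCDK12 and shCDK12_OHT the median widths were 61.2, 56.4 and 71.6 kb, also widest in the combined condition. With the lowest scores differing too, a width difference particular to gained regions was not tested.

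Joins numbered 254 in shNT_OHT, 175 in shCDK12 and 365 in shCDK12_OHT, and divided shNT regions 135, 394 and 276. One-to-one pairs were 3103, 2897 and 2555, and the share of wider pairs was 47.8%, 35.2% and 52.4%. Narrower pairs made up 46.6%, 59.5% and 42.1%. The interquartile range of the log2 density ratio was 0.29, 0.46 and 0.59, the widest being that of the combined change. At least 1.5-fold denser were 0.612%, 3.38% and 7.08% of pairs, and at least 1.5-fold less dense 1.68%, 6.14% and 10.1%. With no replicate lists, whether the combined values differ from the sum or the larger of the single ones beyond the spread between samples was not tested.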

How the data were processed

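EdU-HU-seq of 12 samples was deposited by the authors as 1 list of broad regions per condition (4 lists), made from the merged reads of 3 samples. The deposited read counts are whole numbers per region, not scaled to depth, and the deposited score is the authors' own value, used only to rank regions and as a minimum. The submitters' processing notes name BWA 0.6.2, SAMtools and SICER, and the builds hg19 and mm10, without their roles. Region limits lie on windows of 400 bp, and no gap was under 4400 bp. On 13 of 22 autosomes the lists reach past the hg38 ends, so they were read as hg19. No hg19 sequence or annotation was used here, so regions are given by position only, counted from 1.

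Autosomal regions were matched by an overlap of at least 1 bp. Density is reads per base, divided by the list's median over one-to-one pairs. New and lost bases were found by subtraction. Named regions are the 5 widest gained, the 5 widest lost, the 5 with most joined and 3 with most divided regions, the 5 widest of shNT, the 4 highest and 4 lowest by density and by width ratio among pairs of at least 30 kb, and 3 windows at each end. Depth is known only as reads inside regions, and counting error is shown by Wilson 95% intervals and, for medians, by binomial order-statistic intervals. Lists and rules were chosen with earlier results of these data known. Alternatives covered the overlap rule, joining of near regions, score and width minimums, chromosome X, the density divisor and, added after seeing the data, an equal number of regions per list. The functions were tested on simulated lists with dropped, added, widened and denser regions. These lists held no joined or divided regions and no inward border shifts. Scripts ran under Python 3.11.15 with matplotlib 3.10.9 for plots, pandas 2.3.3 for tables, and numpy 2.4.6 and scipy 1.17.1 for arithmetic.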

Additional observations from a re-analysis of the deposited data

How the results depend on the processing

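Of 86 values under 10 alternatives, 72 stayed close to the reported ones. Close means within 1.5 times for counts, Mb and the shares of new bases. For the shares of pairs and the median width ratio it means within their 95% interval. Orders between values did not all hold. Flanks held more new bases than gained regions when near regions were joined and with equal numbers of regions. The order of denser and less dense pairs turned with the divisor. With a reciprocal overlap of 50%, gained regions numbered 2003 and lost regions 1123, the median log2 width ratio was 0 and 49.6% of pairs were wider. Wider by more than 10% were 37.1% of pairs. The share at least 1.5-fold denser was 5.73% in regions at least 10 kb wide and 5.67% in pairs of closely similar width. With densities divided by summed reads over summed length, 16.3% were denser and 5.48% less dense, and with the median of narrow pairs as divisor 29.1% and 3.37%. The divisor moves all ratios by a constant, which accounts for these shifts, and the cause of the others was not tested beyond the stricter rule itself. With the 3796 highest-scoring regions of each list, an alternative chosen after seeing the data, 639 regions were gained and 465 lost, and covered length differed by 69.5 Mb. More length on all 22 autosomes held under each alternative that gave this value.

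No paired analysis was possible because each condition has 1 merged list, and leaving out samples was not possible either. Depth outside the called regions is not known here. Absence of label and label below the calling threshold of a list cannot be told apart.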

Other observations

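Chromosome X, which was outside the comparison, did not share the difference in covered length seen on the autosomes. It was covered over 5.51 Mb in 69 regions of shNT and over 5.49 Mb in 73 regions of shCDK12_OHT, a ratio of 0.997, where the autosomes ranged from 1.04 to 1.44. In shCDK12_OHT 1.14 Mb of chromosome X were new and 1.16 Mb were lost. Covered length was 6.24 Mb in shNT_OHT and 4.65 Mb in shCDK12. With 1 list per condition this difference from the autosomes was not tested.

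The single region of chromosome M held reads equal to 9.20% of the autosomal reads in regions in shNT, 2.83% in shNT_OHT, 11.9% in shCDK12 and 5.95% in shCDK12_OHT. The share was lower in both lists with OHT. Its count itself lay between 1413690 and 1698827 reads in the 4 lists.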
